A study of Mus musculus with 24 samples.

Results

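The 84 genes described here encode the proteins of the cytosolic ribosome, and they were followed by RNA sequencing in epithelial cells of mouse lung organoids grown with or without nylon 6,6 textile fibers. They were chosen by symbol alone: names that begin with Rpl or Rps and a digit, together with Rplp0, Rplp1, Rplp2 and Rpsa, without the S6 kinases and without 9 pseudogene names. Of 14557 genes with a listed transcript, 49 large subunit and 35 small subunit names met the rule, and all 84 were among the 13759 genes tested. The rule also took in 4 names that are not standard ribosome components: Rps19bp1 encodes a protein that binds S19, Rpl7l1 a nucleolar relative of L7, Rps27rt is an intron-less copy of Rps27, and Rps4l is listed with a processed transcript and a pseudogene transcript only.

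Organoids were grown in Matrigel from 200000 EpCAM+ lung cells of wild-type female C57BL6 mice and 200000 cells of the CCL206 fibroblast line per well, with 4 independent isolations from 4 mice in each group. The control wells received no fibers, and the other groups received 12000 or 30000 nylon fibers of 12 by 31 micrometers per well, mixed in at seeding. After 7 days the EpCAM+ cells were taken with antibody-coated beads, which gave 12 epithelial libraries of 24 in the series. All wells shared the same fibroblast line, and the labels used here give no age for the mice.

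A ribosome is built from a large subunit, which joins amino acids, and a small subunit, which reads the messenger RNA. Most of the proteins are needed in matching amounts, and their messenger RNAs are short, abundant in growing cells and commonly begin with an oligopyrimidine tract (TOP) through which growth signals, above all mTOR, set their translation. Several of the proteins also have known roles off the ribosome: L5 and L11, with 5S ribosomal RNA, bind Mdm2 and stabilise p53 when ribosome assembly fails.

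Total counts on the representative transcripts, the transcript of each gene with the highest mean count, were 2799765 to 3723250 in the 30000-fiber libraries and 6878550 to 10583357 in the other 8, so low members were measured with fewer counts at 30000 fibers. The marker genes of epithelium were all listed, 12 of 12, and summed to 8451 to 9979 CPM (counts per 1000000 representative counts, TMM-scaled) in controls, 9353 to 11720 with 12000 fibers and 7505 to 8205 with 30000. Of the fibroblast markers, 11 of 12 were listed. Their sum of 8086 to 12520 CPM in controls stood at 14510 to 15940 and 13280 to 16360 with fibers. Most of this sum was Fn1. Its means were 9131 of 10090 CPM in controls, 13210 of 15170 at 12000 fibers and 11210 of 14720 at 30000. Dcn had means of 23.6, 65.6 and 229.6 CPM in that order. All 10 of the fibroblast markers tested rose at both fiber numbers, while of 12 epithelial markers 3 rose and 5 fell at 12000 fibers, and 2 rose and 9 fell at 30000. The fibroblast marker Thy1, the immune markers Ptprc, Itgam, Adgre1 and Cd3e, the endothelial marker Cdh5 and the mesothelial marker Upk3b were not listed; the 3 listed immune markers had sums of 68.6 to 172.9 CPM without fibers, of 154.2 to 277.2 with 12000 and of 287.6 to 459.9 with 30000. The 3 listed endothelial and mesothelial markers had sums of 989.6 to 1212, of 665.2 to 819.4 and of 389.1 to 606.6 in that order. Nearly all of that was the mesothelial marker Msln, with means of 1106, 751.2 and 462.8 CPM. The endothelial markers were low, at 1.37, 0.867 and 1.88 CPM for Pecam1 and 1.94, 2.62 and 0.903 for Kdr. Most of the immune sum was Lyz2, with means of 108.3, 191.8 and 344.9 CPM, so that sum rests mainly on 1 gene and does not measure immune cell content. The part that a change in cell makeup had in the results on ribosomal protein genes was not tested, and in bulk libraries fewer cells of a type and less RNA per cell cannot be told apart. Scaling by plain totals in place of TMM moved the median of all genes to -0.25 on the log2 scale at 30000 fibers and split the calls at 3237 higher against 6363 lower, in place of 4434 against 4592.

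Ribosomal protein genes took a small share of the counts in the controls and a share 4.91 times as large at 30000 fibers. The 4 control libraries, mice 1 to 4, had 0.983%, 0.888%, 0.922% and 0.819% of their representative counts on the 84 genes, the 12000-fiber libraries had 0.991%, 0.936%, 0.972% and 0.991%, and the 30000-fiber libraries had 4.16%, 4.62%, 4.43% and 4.52%. All 4 libraries at 30000 fibers lay above all others, whereas the 12000-fiber range overlapped the control range. The large subunit genes held 0.544% ± 0.0365 (SD, n = 4) in controls and 2.60% ± 0.106 at the higher fiber number, the small subunit genes 0.359% ± 0.0324 and 1.83% ± 0.0920. The ratio of large to small subunit counts was 1.52 ± 0.0449 in controls, 1.56 ± 0.0206 at 12000 fibers and 1.42 ± 0.0200 at 30000, where all 4 values (1.44, 1.42, 1.43 and 1.39) lay under the lowest of the other 8. Over the same libraries, the share on genes of the mitochondrial genome was 6.44% ± 1.118 in controls, 6.08% ± 0.724 at 12000 fibers and 15.6% ± 0.882 at 30000. Other genes whose representative transcript is under 1000 bases held 2.09% ± 0.108, 2.19% ± 0.110 and 4.96% ± 0.160, so the share on short transcripts outside the ribosome was 2.37 times as large at 30000 fibers as in controls. The part of these shifts in the rise of the ribosomal share was not tested.

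**Figure D1:**
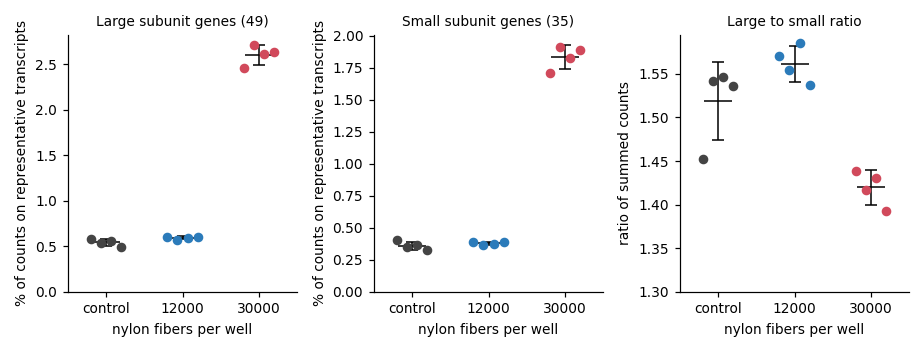
Share of the counts on representative transcripts that fell on large subunit genes (left) and small subunit genes (middle), in percent, and the ratio of the summed counts of both (right, axis not from 0), against the number of fibers per well. Points are the 4 libraries of a group, bars the mean and SD; the 30000-fiber libraries lie apart from all others in each panel, at 2.60% and 1.83% on average and a ratio of 1.42.

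The representative transcripts covered a wide range of levels per length although their proteins are needed in like amounts. The median in controls was 76.7 CPM per kilobase (quartiles 27.99 and 164) and at 30000 fibers 726 (159 and 1150). The highest in controls was the stalk protein gene Rplp1, at 554 ± 57.4 CPM per kilobase (SD, n = 4), followed by Rpl32 (459.9 ± 48.9), Rpl4 (449.5 ± 18.3), Rpl41 (448 ± 84.9) and Rps15 (417 ± 21.02), and the middle 3 of these did not differ beyond their spread. At 30000 fibers the order was led by Rpl41, which encodes one of the smallest known proteins, at 3172 ± 375, and Rpl38 at 3097 ± 276, which did not differ beyond their spread, ahead of Rpl39 at 2649 ± 98.5. The lowest in controls were Rps27rt (0.294 ± 0.217), Rpl36a (1.32 ± 0.323) and Rps23 (1.56 ± 0.323). For 30 of the 84 genes the transcript with the most counts was not a coding one (20 intron-retaining, 7 processed, 3 subject to nonsense-mediated decay), and Rpl10, Rpl36a and Rps4l had no coding transcript listed, so a level here is that of the listed transcript and not of the whole gene. Protein was not measured, and where a protein is named below its change is that of the listed transcript.

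At 12000 fibers the change was small and uneven over the ribosome. Against control, 17 of 84 genes (20.2%) were higher and 2 (2.38%) lower by edgeR's quasi-likelihood test with Benjamini-Hochberg adjustment over all genes, against 18.7% higher and 19.3% lower among all genes tested, so the higher share was near that of the whole table. The median over the members was a log2 change of 0.10, against -0.0026 over all genes. Of the calls upward, 12 were large subunit genes and 5 small subunit genes, and for 13 members all 4 libraries lay above all 4 controls (17.6% of all genes did). For 2 members, Rpl9 and Rps4l, all 4 lay below (18.7% of all genes).

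Rpl23, a protein of the subunit interface, had the smallest p. Its level was 279, 264, 294 and 265 CPM in the controls, 347, 344, 377 and 406 at 12000 fibers and 1009, 1083, 1043 and 1021 at 30000 fibers. The 12000-fiber libraries did not overlap the controls, and the log2 change was 0.42 ± 0.07 (SE; adjusted p = 5.81e-05, edgeR). Rps15, a protein near the decoding site, was at 203, 209.6, 223 and 199 CPM in the controls, 260.5, 253, 247 and 256 at 12000 fibers and 529, 575, 588 and 569.6 at 30000 fibers. It rose by 0.28 ± 0.06 (adjusted p = 8.85e-04, edgeR), again without overlap. Rpl36, a small protein of the large subunit, was at 23.0, 22.8, 24.4 and 19.7 CPM in the controls, 25.6, 27.7, 31.2 and 31.8 at 12000 fibers and 594, 729, 653 and 721 at 30000 fibers. It rose by 0.37 ± 0.10 (adjusted p = 0.00486, edgeR). Rplp2, one of the acidic proteins of the stalk that binds elongation factors, was at 18.2, 18.7, 17.6 and 14.5 CPM in the controls, 26.8, 19.3, 20.9 and 20.6 at 12000 fibers and 5.88, 4.23, 6.18 and 4.34 at 30000 fibers. Its rise at 12000 fibers was 0.36 ± 0.12 (adjusted p = 0.0235, edgeR), and it was not called without control mouse 4 (0.28, adjusted p = 0.0914) or without 12000-fiber mouse 1 (0.24, 0.149).

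Other members that rose at 12000 fibers were Rpl38 (0.33), known for its part in the translation of Hox messenger RNAs, Rpl31 (0.33), Rps27l (0.31), a p53-induced relative of S27, Rpl37 (0.28) and Rps4x (0.23). The 12000-fiber libraries of Rpl38, Rpl31 and Rps27l overlapped the controls. Rps4l, with 15.3, 15.1, 13.7 and 10.6 CPM in the controls, 10.0, 9.19, 9.76 and 8.17 at 12000 fibers and 6.27, 5.64, 7.65 and 6.01 at 30000 fibers, fell by 0.55 at 12000 fibers (adjusted p = 0.00331, edgeR), the largest fall of any member. Rpl9, with 42.6, 36.6, 37.8 and 39.9 CPM in the controls, 23.9, 33.0, 33.3 and 35.1 at 12000 fibers and 18.4, 22.2, 18.6 and 29.1 at 30000 fibers, fell by 0.33 (adjusted p = 0.034, edgeR), and its call was lost without control mouse 1, control mouse 4 or 12000-fiber mouse 1. The count of 17 moved to 29 without control mouse 1, to 10 without control mouse 4, to 11 without 12000-fiber mouse 1, and to 8 higher and 1 lower when a trend of counts with transcript length was taken out (19.5% and 18.8% of all genes under that offset). Rpl36, Rpl37 and Rps27l were among the 9 members whose call upward was lost under the offset.

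At 30000 fibers nearly the whole set was higher. Against control, 78 of 84 genes (92.9%) rose and 5 (5.95%) fell by edgeR's quasi-likelihood test, against 32.2% and 33.4% of all genes tested, and the median log2 change was 2.78 against -0.03. In the large subunit 46 of 49 rose and 3 fell (median 2.72), and in the small subunit 32 of 35 rose and 2 fell (median 2.88). The 30000-fiber libraries all lay above the controls in 78 members and all below in 4 (28.7% and 29.4% of all genes). Rps2, a protein of the messenger RNA entry channel, was not called (0.14 ± 0.10, adjusted p = 0.24, edgeR). As given above, 10 of 10 fibroblast markers and the mitochondrial-genome share were also higher in these libraries, their totals were lower, and what part these had was not tested.

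**Figure D2:**
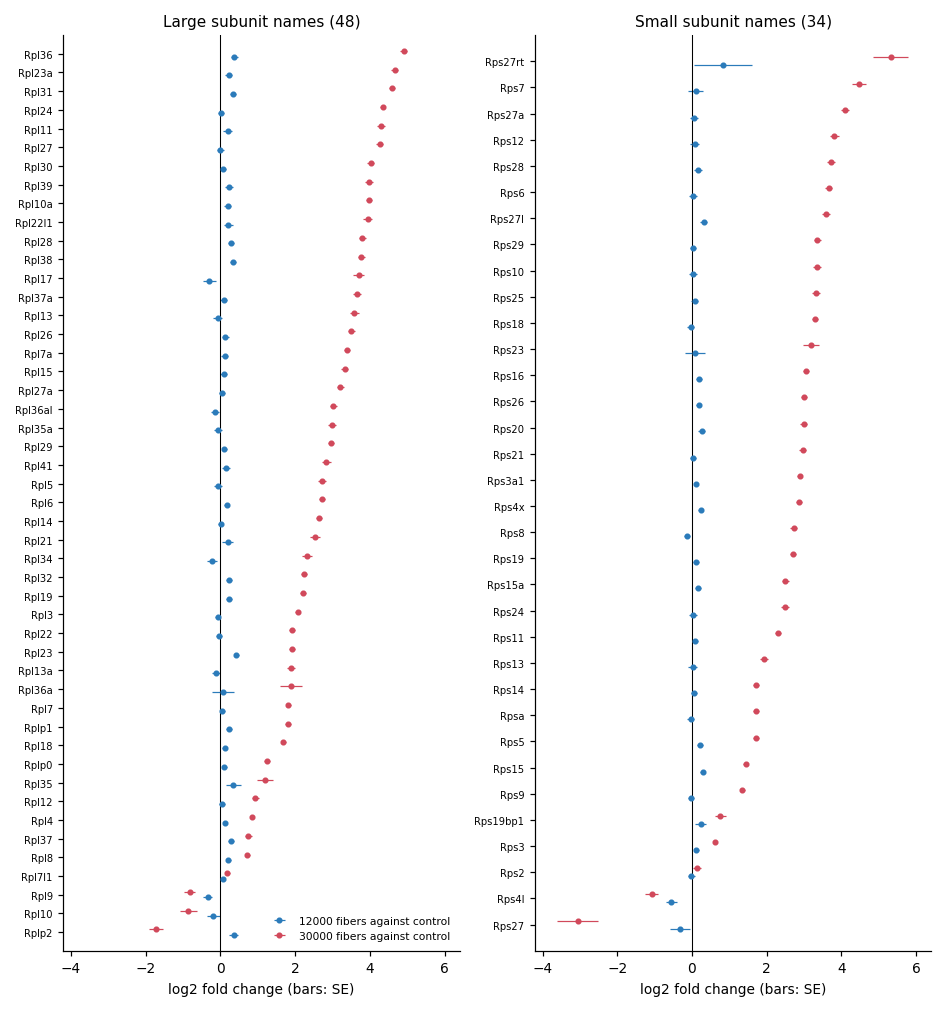
Log2 fold change of 82 members against control at 12000 fibers (blue) and 30000 fibers (red), with its SE, for large subunit names (left) and small subunit names (right), ordered by the change at 30000 fibers. The blue points lie near 0, and 76 of the 82 red points drawn are changes upward past the threshold, from 0.19 to 5.32. The highest is Rps27rt, which had few counts and was listed only through its counts at 30000 fibers.

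The genes of the stalk, which recruits elongation factors to the large subunit, did not move together. Rplp0, its base protein, was at 551, 558, 542 and 479 CPM in the controls, 594, 561, 584 and 548 at 12000 fibers and 1201, 1381, 1224 and 1241 at 30000 fibers, and it rose by 1.24 ± 0.07 at 30000 fibers (adjusted p = 5.19e-12, edgeR). Rplp1 rose by 1.80 and Rpl12, at the foot of the stalk, by 0.94. The call of Rplp1 was lost when the trend of counts with transcript length was taken out (-0.04, edgeR adjusted p = 0.665). Rplp2 was below its controls in all 4 libraries, as listed above, and fell by 1.73 (adjusted p = 9.95e-08, edgeR). All 5 of its transcripts tested fell, by 1.73 to 3.30.

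Transcripts of the 2 genes for the 5S particle proteins that bind Mdm2 rose, and the proteins were not measured. Rpl11 was represented by a processed transcript of 317 bases that is not a coding one. Rpl11 was at 26.7, 23.9, 22.4 and 15.5 CPM in the controls, 27.97, 24.1, 23.7 and 25.1 at 12000 fibers and 419, 449, 444 and 429.6 at 30000 fibers, a change of 4.30 ± 0.11 at 30000 fibers (adjusted p = 2.40e-15, edgeR). Rpl5 was at 15.6, 15.0, 12.0 and 12.7 CPM in the controls, 14.0, 16.0, 11.7 and 11.1 at 12000 fibers and 91.7, 86.8, 94.8 and 93.2 at 30000 fibers. The log2 change of Rpl5 was 2.73 ± 0.11 (adjusted p = 2.83e-14, edgeR). In both genes the 30000-fiber libraries lay far from the other 8, which overlapped each other.

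All 8 genes listed for the peptide exit tunnel rose, with a median of 3.598, where 92.9% of all members rose. With the trend of counts with length taken out, 7 were higher, with a median of 2.08. Rpl23a, a tunnel-mouth protein at which the signal recognition particle docks, was at 44.8, 34.9, 37.1 and 31.8 CPM in the controls, 40.1, 41.4, 45.6 and 46.2 at 12000 fibers and 931, 986, 922 and 936 at 30000 fibers. The log2 change of Rpl23a was 4.67 ± 0.09 (adjusted p = 1.14e-18, edgeR). Rpl31, its neighbour at the exit, was at 44.0, 36.5, 36.6 and 34.1 CPM in the controls, 48.8, 45.7, 41.8 and 53.3 at 12000 fibers and 859.6, 948, 899.6 and 942 at 30000 fibers. The log2 change of Rpl31 was 4.59 ± 0.09 (adjusted p = 1.14e-18, edgeR). Rpl39, a very small protein inside the tunnel, was at 131, 96.3, 101 and 82.0 CPM in the controls, 120.4, 114, 123 and 126 at 12000 fibers and 1561, 1705, 1603 and 1616 at 30000 fibers. The log2 change of Rpl39 was 3.98 ± 0.11 (adjusted p = 8.15e-16, edgeR). Rpl4, whose loop lines the tunnel, was at 686, 688, 729 and 662 CPM in the controls, 775, 732, 772 and 721 at 12000 fibers and 1196, 1289, 1251 and 1247 at 30000 fibers and had one of the smaller changes, 0.85 ± 0.06 (adjusted p = 2.80e-10, edgeR).

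The largest change of the large subunit was that of Rpl36 (chromosome 17, 56613416-56614243 in GRCm38, a single listed transcript of 383 bases), 4.91 ± 0.09 (adjusted p = 1.14e-18, edgeR), from the levels given above. Rpl24, a protein near the subunit interface, was at 25.5, 24.4, 25.1 and 22.4 CPM in the controls, 24.8, 23.6, 22.9 and 27.5 at 12000 fibers and 475, 495, 480.4 and 522 at 30000 fibers. Rpl24 rose by 4.34 ± 0.07 (adjusted p = 2.04e-19, edgeR). Rpl41 was at 247, 185, 191 and 159 CPM in the controls, 222, 204, 208 and 235 at 12000 fibers and 1243, 1620, 1369 and 1313 at 30000 fibers. Rpl41 rose by 2.83 ± 0.12 (adjusted p = 6.67e-12, edgeR). Rpl38 was at 89.2, 73.1, 79.5 and 72.0 CPM in the controls, 96.0, 86.2, 100.4 and 112 at 12000 fibers and 972, 1194, 1082 and 1026 at 30000 fibers. It rose by 3.77 ± 0.10 (adjusted p = 3.10e-17, edgeR). Rpl3, at the peptidyl transferase centre, was at 148, 132, 135 and 127 CPM in the controls, 131, 134, 128 and 121 at 12000 fibers and 563, 566, 556 and 584 at 30000 fibers. Rpl3 rose by 2.07 ± 0.06 (adjusted p = 5.45e-16, edgeR). Rpl22, whose loss is known to change T-cell development, was at 185, 146, 159.5 and 153 CPM in the controls, 150.3, 142, 159 and 171 at 12000 fibers and 589, 560.2, 601 and 678 at 30000 fibers. Its paralog Rpl22l1 was at 29.2, 22.3, 20.3 and 20.3 CPM in the controls, 22.6, 26.5, 28.3 and 30.1 at 12000 fibers and 333, 344, 336 and 400.2 at 30000 fibers. Rpl22 rose by 1.92 ± 0.08 and Rpl22l1 by 3.94 ± 0.11 (edgeR adjusted p = 1.19e-13 and 5.43e-15), and both lay above all other libraries. Rpl37 was at 33.6, 36.5, 43.0 and 42.4 CPM in the controls, 49.9, 47.6, 44.2 and 46.8 at 12000 fibers and 68.6, 66.3, 63.0 and 62.8 at 30000 fibers, with the 12000-fiber libraries above the controls and below those at 30000. The smallest changes upward in the large subunit were those of Rpl7l1 (0.19), Rpl8 (0.72) and Rpl37 (0.74).

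In the small subunit, genes of the decoding site and entry channel had a smaller median change than those of the beak and the exit region. Of the 5 decoding and entry genes 4 rose, with a median of 1.35. All 4 beak genes (median 3.58) and all 4 exit-region genes (median 2.35) rose, and the difference between these groups was not tested. With the trend of counts with length taken out, the decoding and entry genes had 2 higher and 2 lower with a median of 0.09, against medians of 2.38 in the beak and 1.395 in the exit region. Rps3, an entry-channel protein that also counts as beak, was at 372, 343, 351 and 324 CPM in the controls, 383, 354, 376 and 387 at 12000 fibers and 488, 571, 524 and 544 at 30000 fibers. Rps3 rose by 0.61 ± 0.07 (adjusted p = 1.00e-07, edgeR). Rps2 was at 87.6, 87.2, 72.7 and 67.9 CPM in the controls, 86.3, 86.1, 74.6 and 64.2 at 12000 fibers and 88.5, 87.1, 86.0 and 85.5 at 30000 fibers, with overlap between all 3 groups. Rps12, a beak protein, was at 124, 91.6, 92.1 and 88.9 CPM in the controls, 97.7, 89.8, 109.7 and 119 at 12000 fibers and 1209, 1548, 1344 and 1429 at 30000 fibers. Rps12 rose by 3.80 ± 0.12 (adjusted p = 1.12e-13, edgeR). Rps27a, made as a fusion with ubiquitin, was at 63.1, 48.5, 47.8 and 44.3 CPM in the controls, 49.8, 46.8, 55.5 and 58.3 at 12000 fibers and 768, 923, 838 and 924 at 30000 fibers. Rps27a rose by 4.08 ± 0.11 (adjusted p = 5.45e-16, edgeR). Rpsa, the exit-region protein also known as the laminin receptor, was at 200.1, 165, 179 and 149 CPM in the controls, 169, 166, 175 and 167 at 12000 fibers and 482, 629, 585 and 566 at 30000 fibers. Rpsa rose by 1.71 ± 0.09 (adjusted p = 1.83e-12, edgeR).

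Rps6, the protein phosphorylated by the S6 kinases downstream of mTOR, was at 64.0, 48.2, 47.6 and 43.4 CPM in the controls, 46.3, 48.5, 55.1 and 58.1 at 12000 fibers and 634, 636, 639 and 646 at 30000 fibers. The 30000-fiber libraries lay far above all others, and the log2 change was 3.65 ± 0.10 (adjusted p = 7.20e-16, edgeR). Rps7 and Rps19 are among the genes mutated in Diamond-Blackfan anaemia. Rps7 was at 30.6, 18.8, 19.1 and 13.9 CPM in the controls, 19.6, 19.7, 22.7 and 25.9 at 12000 fibers and 440.0, 452, 455 and 466 at 30000 fibers. It rose by 4.47 ± 0.18 (edgeR adjusted p = 6.40e-10). Rps19 was at 124, 107, 107 and 92.3 CPM in the controls, 116, 122, 109 and 121 at 12000 fibers and 643, 709, 675 and 766 at 30000 fibers. Rps19 rose by 2.70 ± 0.08 (adjusted p = 6.98e-16, edgeR). Rps4x, the X-linked form of S4, was at 126, 131, 138 and 118 CPM in the controls, 162, 149, 143 and 147 at 12000 fibers and 899, 999, 909.9 and 926 at 30000 fibers. Rps4x rose by 2.87 ± 0.07 (adjusted p = 2.08e-17, edgeR). Rps27l, at 52.0, 36.8, 38.8 and 42.2 CPM in the controls, 47.4, 49.2, 53.4 and 60.6 at 12000 fibers and 481, 538, 505 and 519 at 30000 fibers, rose by 3.59 ± 0.10 (adjusted p = 3.16e-16, edgeR).

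Besides Rplp2, the members that fell at 30000 fibers were represented by transcripts of other kinds than the coding messenger RNA. Rpl10, a protein that joins the large subunit last, was at 12.4, 11.8, 9.77 and 12.1 CPM in the controls, 8.61, 10.3, 12.3 and 9.78 at 12000 fibers and 2.74, 9.88, 6.18 and 6.35 at 30000 fibers and fell by 0.86 (adjusted p = 0.00226, edgeR), with overlap between the groups. All 7 of its listed transcripts were intron-retaining or processed ones, and the principal coding transcript was not among them. Rpl9 fell by 0.83 on an intron-retaining transcript of 2651 bases (adjusted p = 5.21e-05, edgeR), while its coding transcripts of 738 and 1193 bases changed by -0.09 and -0.31 (adjusted p = 0.772 and 0.0838) and were not called. Rps4l fell by 1.08 (adjusted p = 2.22e-05, edgeR).

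Rps27 and its copy Rps27rt moved in opposite directions, on few counts. Rps27, a zinc-finger protein of the small subunit, was at 3.01, 1.75, 2.35 and 2.02 CPM in the controls, 1.97, 1.47, 2.23 and 1.47 at 12000 fibers and 0.392, 0, 0.294 and 0.334 at 30000 fibers on an intron-retaining transcript, and its 4 libraries at 30000 fibers held 3 counts in all against 82 in controls. The ratio to control was 0.113, with an exact 95% interval of 0.0229 to 0.343 that covers counting error only. Rps27rt was at 0.116, 0.195, 0.130 and 0 CPM in the controls, 0.179, 0, 0.418 and 0.268 at 12000 fibers and 5.88, 4.59, 5.30 and 4.68 at 30000 fibers, 60 counts at 30000 fibers against 4 in controls, a ratio of 46.5 (17.2 to 176). No listed transcript had under 60 counts over the 12 libraries, and Rps27rt had 7 at 12000 fibers. It was therefore listed only through its counts at 30000 fibers, and the size of its rise is a description only. The principal coding transcript of Rps27 was not listed, and 341 of its 345 bases align without a gap to Rps27rt with 341 identical. Reads of a spliced Rps27 messenger RNA therefore cannot be told apart from reads of Rps27rt over that stretch. More generally, many ribosomal protein genes have processed pseudogenes of near-identical sequence, and the sources used here do not say how such reads were assigned.

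The start windows printed here were picked because they hold CTTTC, a short run of pyrimidines of the kind found in TOP tracts. They belong to a few members with higher or lower representatives at 30000 fibers. Other members that rose, such as Rpl31, Rpl11 and Rps6, have windows without it. RefSeq (GRCm38.p6) gave start windows for 63 of the 84 members. Each line holds 25 bases before and 25 after the annotated start, on the strand of the gene, 5′ to 3′, with every CTTTC in capitals. The first 4 genes, Rpl38 (chr11:114668555-114668604), Rpl28 (chr7:4792940-4792989), Rps10 (chr17:27635220-27635269, minus strand) and Rps26 (chr10:128626482-128626531, minus strand), rose at 30000 fibers by 3.77, 3.79, 3.35 and 3.00. Rplp2 (chr7:141447626-141447675) and Rps27 (chr3:90213624-90213673, minus strand) had lower representatives. That of Rps27 was an intron-retaining transcript with 3 counts in all at 30000 fibers, and its coding transcript was not listed. Rps27rt (chr9:114982715-114982764, minus strand) is set beside Rps27 as its copy.
Rpl38: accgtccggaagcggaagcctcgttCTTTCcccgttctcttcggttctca
Rpl28: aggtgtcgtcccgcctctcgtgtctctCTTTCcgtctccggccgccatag
Rps10: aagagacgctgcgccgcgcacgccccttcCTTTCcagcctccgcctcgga
Rps26: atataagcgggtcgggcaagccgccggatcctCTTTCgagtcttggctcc
Rplp2: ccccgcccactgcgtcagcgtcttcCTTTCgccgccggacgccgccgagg
Rps27: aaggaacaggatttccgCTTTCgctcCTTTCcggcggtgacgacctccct
Rps27rt: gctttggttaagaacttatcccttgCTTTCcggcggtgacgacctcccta
CTTTC on the transcript strand was found in 19 of 63 member windows (30.2%) and in 7.81% of the windows of 26962 other genes, and on either strand in 38.1% and 14.3%. The letters CCGGAAG, the core of sites bound by ETS factors, were sought from 250 bases before to 50 after the start. They were found on either strand in 39.7% of the members and in 9.86% of the other genes. These are matches of letters in annotated windows and say nothing of which start was used in these cells.

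Between the fiber groups most members rose as well. At 30000 against 12000 fibers 77 members rose and 5 fell by edgeR's quasi-likelihood test (28.3% and 27.1% of all genes tested), with a median log2 change of 2.70, and Rps2 and Rpl7l1 were not called. The largest changes were those of Rpl36 (4.54), Rps27rt (4.48, listed only through its 30000-fiber counts), Rpl23a (4.45) and Rps7 (4.37). The fall of Rplp2 was larger from 12000 to 30000 fibers, -2.09 ± 0.18 (adjusted p = 7.35e-09, edgeR), since its 12000-fiber level stood above control. Both comparisons use the same 30000-fiber libraries.

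Ribosomal protein transcripts are short, and at 30000 fibers short transcripts of other genes also had the higher changes. The members' representatives ran from 306 to 5179 bases with a median of 849, against 3180 for the other genes tested. The 53 members under 1000 bases had a median log2 change of 2.99 and the 31 longer ones 1.93. Across the members the rank correlation of length and change was -0.43 (Spearman rho, 84 genes of the same libraries, a description) and across 13585 other genes -0.25. Among genes of 57 to 1803 bases, the shortest of 5 equal classes, 54.5% of the 2666 other genes were higher with a median of 0.50, and 65 of 70 members were higher with a median of 2.96. Among genes of 57 to 1272 bases, 64.9% of 1303 other genes were higher with a median of 0.83, against 61 of 66 members and 2.98. At 12000 fibers the same class had medians of 0.05 in other genes and 0.12 in members.

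**Figure D3:**
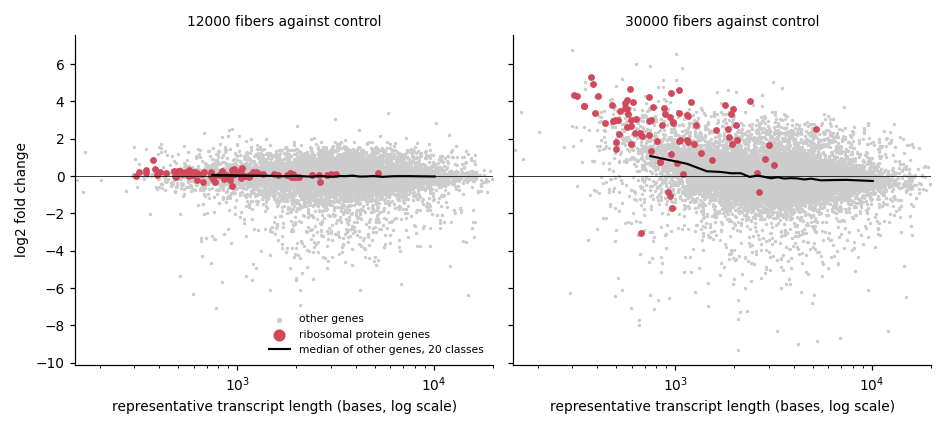
Log2 fold change against the length of the representative transcript in bases (log scale) for 12000 fibers (left) and 30000 fibers (right) against control, with members in red, other genes in grey and the median of other genes in 20 classes of length as a line. At 30000 fibers the line rises towards short transcripts, and most members lie above it.

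With a per-library trend of log2 count on log2 length taken out, 70 members were higher and 9 lower at 30000 fibers against control (30.0% and 32.8% of all genes under that offset), with a median of 1.59. The median was 1.73 in the large and 1.53 in the small subunit. The largest values under the offset were those of Rpl30 (3.97), Rpl31 (3.81), Rps12 (3.59) and Rps7 (3.56). Rpl37 (-0.37), Rps15 (-0.40), Rps19bp1 (-0.34) and Rps2 (-0.58) turned lower and passed the threshold in that direction. Another 5 members lost their call: Rpl8 (-0.11), Rpl35 (0.28), Rplp1 (-0.04), Rps9 (0.09) and Rps14 (0.12). Rpl36 went from 4.91 to 2.70. At 30000 against 12000 fibers 70 members were higher and 11 lower under the offset (25.4% and 26.3% of all genes). Against 12000 fibers Rplp1 (-0.19) and Rpl8 (-0.28) were then called lower, with Rpl37, Rps15, Rps19bp1 and Rps2.

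Isoforms of a single ribosomal protein gene went different ways at 30000 fibers, and the direction differed by where they end. Of 446 listed transcripts of the 84 genes, 431 were tested; 269 rose and 130 fell (19.4% and 51.0% of all 67490 transcripts tested, edgeR quasi-likelihood test). Scaled by TMM on the transcript table itself, a choice made after the data were seen, the split was 279 against 102 in the members and 20411 against 22452 in all transcripts. The coding transcripts rose in 161 of 208 cases (median 2.27) and intron-retaining ones in 64 of 153, with 72 lower (median -0.29, and 0.05 under the other scaling). The intron-retaining result depended on low counts. Among isoforms with a mean of at least 100 counts, 58 of 88 intron-retaining transcripts rose and 24 fell (median 2.16). Transcripts whose 3′ end lies within 3 bases of that of the representative rose in 74 of 82 cases (median 3.48). Of those that end more than 100 bases upstream of it, 43 of 161 rose and 93 fell (median -0.78). Under the other scaling 50 rose and 76 fell (median -0.44). With a mean of at least 100 counts, 32 of 81 of these rose and 37 fell (median -0.13). In that setting 73 of 79 transcripts ending within 3 bases rose, and 7229 of all 30336 transcripts rose and 16115 fell. At 12000 fibers 60 member transcripts rose and 8 fell of the same 431 (15.0% and 14.5% of all).

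Isoforms of a gene share exons, and a read can be counted for several of them. The ratio of an isoform's count to that of its gene's representative needs no scaling between libraries. In 65 members an isoform with a mean of at least 50 counts ends upstream of the representative, by only 1 to 10 bases in 27 of them. Its share of the representative's count was lower in all 4 libraries at 30000 fibers than in all controls in 46 of the 65 and higher in 12. The representative was itself chosen by its mean over all 12 libraries, so the choice favours transcripts that are high at 30000 fibers. Part of these falls can thus come from the choice. In controls the upstream isoform had more counts than the representative in some members, such as Rpl6 (115.9%), Rpl7 (114.7%) and Rpl10a (113.2%). Among all 7401 genes with such a pair these shares were 59.6% and 8.24%, so a loss of the upstream-ending isoform relative to the representative was common in the whole table too. For the 28 members with an end more than 100 bases upstream the median share was 74.1% in controls, 72.6% at 12000 fibers and 35.1% at 30000, and for 4953 other genes it was 61.1%, 62.2% and 44.1%. At 12000 fibers 3 of the 65 members were lower and 1 higher (1.88% and 4.53% of all genes).

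**Figure D4:**
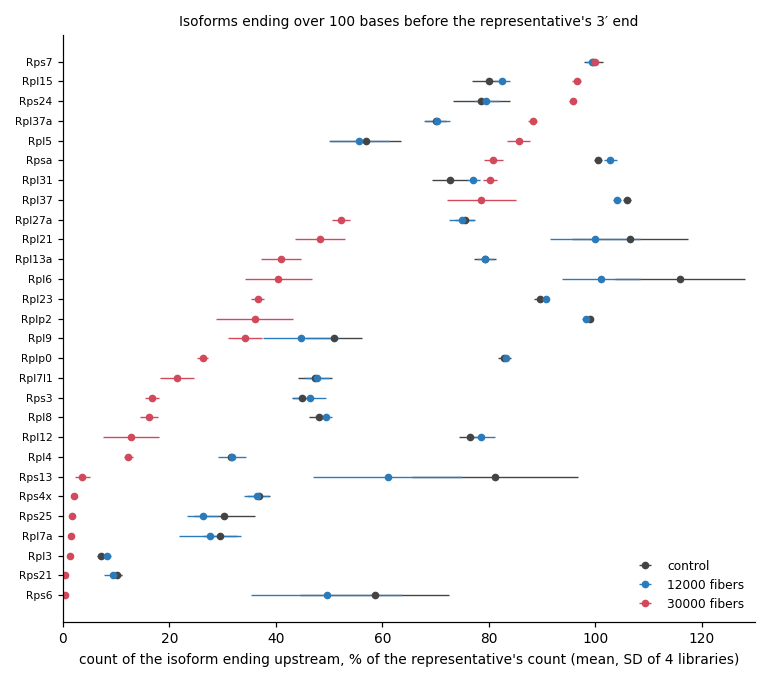
Count of the isoform that ends more than 100 bases upstream of the representative's 3′ end, in percent of the representative's count, for 28 members (mean and SD of 4 libraries), in controls (grey), at 12000 fibers (blue) and at 30000 fibers (red). Grey and blue points lie close together in most genes. Of the 28 red points 22 are lower than control without overlap, such as Rps6 at 0.328%, and 5 are higher without overlap.

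Rps6 had the lowest share. Its isoform ending 1202 bases upstream held 72.2, 59.6, 63.3 and 39.2% of the representative's count in the controls, 61.2, 62.1, 40.5 and 34.3% at 12000 fibers and 0.185, 0.277, 0.230 and 0.621% at 30000 fibers (exact permutation test, 2-sided p = 0.0286 for 30000 fibers, the smallest that 4 against 4 allows). Every pair without overlap has this p, unadjusted. Rps6 is singled out by these same values, so the p adds no support for this gene. The representative rose by 3.65 on the log2 scale while this isoform fell by 3.83 (adjusted p = 0.000104, edgeR). In Rplp0 a coding isoform ending 1172 bases upstream held 81.9, 82.2, 82.9 and 84.6% in the controls, 82.9, 82.7, 83.4 and 83.8% at 12000 fibers and 26.0, 27.8, 25.7 and 25.5% at 30000 fibers. The representative rose by 1.24 and that isoform fell by 0.41 (adjusted p = 1.32e-05, edgeR). An isoform that ends close to the representative could fall too. In Rps9, a decoding-site protein, a coding isoform of 1347 bases ends 2 bases upstream and went from 88.8, 93.4, 92.8 and 94.2% in the controls to 28.5, 29.4, 28.3 and 30.1% at 30000 fibers.

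Shares were more often higher than lower for isoforms that end within 3 bases of the representative and begin at least 100 bases later. These isoforms were chosen by their end points only. They can hold retained introns and be longer than the representative, as in Rpl26 (636 against 526 bases). In Rpl18, Rpl34, Rps14 and Rps19, 4 of them end 1 to 3 bases upstream and are also among the 65. In 19 members such an isoform had a median share of 88.5% in controls, 88.8% at 12000 fibers and 97.4% at 30000, and 13 of 19 were higher and 3 lower at 30000 fibers without overlap (44.2% and 10.2% of 1553 genes with such a pair). At 12000 fibers 1 of the 19 was higher (1.42% of all such genes, with 4.44% lower). Rpl7 encodes a protein of the large subunit. Its 3′ isoform of 421 bases held 18.9, 15.0, 15.5 and 14.9% of the representative's count in the controls, 16.3, 16.4, 17.6 and 16.7% at 12000 fibers and 82.3, 79.6, 80.5 and 79.3% at 30000 fibers, and it rose by 4.13 while the representative rose by 1.81. Of the 28 members with an end more than 100 bases upstream, 5 went against the main direction, with a higher share at 30000 fibers without overlap. They were Rpl5, Rpl15, Rpl31, Rpl37a and Rps24. In Rpl15 and Rps24 isoforms ending 1137 and 1101 bases upstream had shares of 80.0% ± 3.12 and 78.6% ± 5.36 in controls (SD, n = 4) and of 96.5% ± 0.793 and 95.7% ± 0.593 at 30000 fibers.

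**Figure D5:**
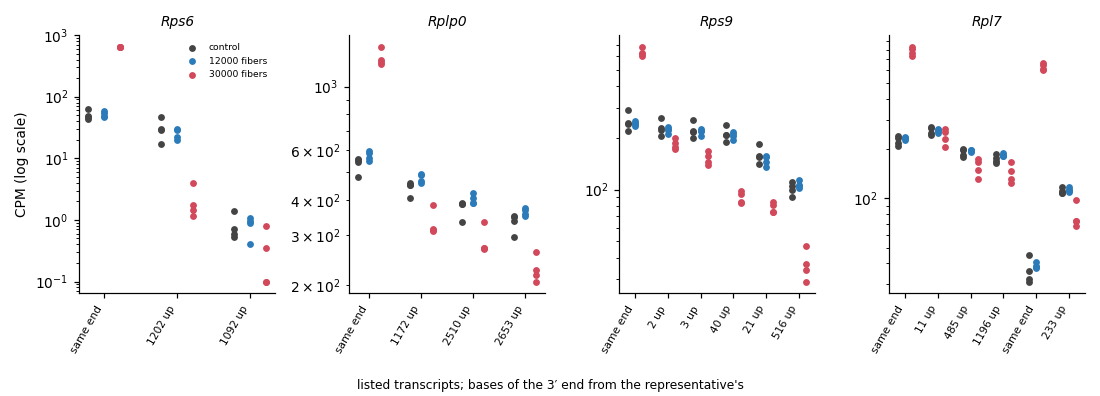
CPM (log scale) of the listed transcripts of Rps6, Rplp0 and Rpl7 and the 6 highest of Rps9, by library, with the representative first and the others named by how many bases upstream of its 3′ end they stop; values of 0 are drawn at 0.1. In each gene the red points (30000 fibers) of the representative lie above the grey and blue ones, and those of most isoforms that stop upstream lie below.

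The choice of transcript thus set the direction for Rpl11 and some other members. Rpl11's representative of 317 bases and its coding transcript of 833 bases rose by 4.30 and 4.35, whereas its longest listed transcript of 917 bases, ending 686 bases upstream, fell by 1.41 (adjusted p = 0.00234, edgeR). Represented by their highest coding transcript, another choice made after the data were seen, 77 of 80 members with one tested rose at 30000 fibers and 2 fell (33.3% and 33.2% of all genes under that choice), and 17 rose and 0 fell at 12000 fibers (19.4% and 20.1% of all genes; 1 lower at an unadjusted p under 0.05; edgeR quasi-likelihood test).

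Other genes of the translation machinery were set beside the members from lists chosen with earlier results known; among all genes tested 32.2% were higher and 33.4% lower at 30000 fibers, and 18.7% and 19.3% at 12000 fibers. Fau, the S30 fusion gene (3.56 ± 0.08), and Rack1 (0.94 ± 0.07), ribosomal proteins whose symbols fall outside the rule, rose at 30000 fibers. Of 22 other messenger RNAs with a known TOP tract 19 rose and 2 fell (median 0.96, and 0.49 under the length offset), among them Naca (2.08 ± 0.07) and Eef1g (1.97 ± 0.07), and Rack1 and Fau are on that list too. Of 36 ribosome assembly genes 25 rose and 1 fell (median 0.37), and the nucleolar chaperone gene Npm1 rose by 0.99 ± 0.07. RNA polymerase I and III genes were split, 7 higher and 7 lower of 22 (median -0.0016). Genes of growth signalling to the ribosome had 9 higher and 5 lower of 19 tested (median 0.19), with Myc at 0.57 ± 0.08. The protein genes of the mitochondrial ribosome, a separate set of short nuclear genes (median 1418 bases), rose in 66 of 75 and fell in 2 (median 0.91, and 0.37 under the length offset). Nuclear genes of oxidative phosphorylation (median 875 bases) rose in 80 of 83 and fell in 1 (median 1.85, and 0.81 under the offset). At 12000 fibers the assembly genes had 13 of 36 higher, the TOP list 7 of 22, and the mitochondrial ribosome 7 higher and 3 lower of 75, both smaller shares than among all genes.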

How the data were processed

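Per the labels' protocols, total RNA of the EpCAM+ fraction was sequenced on a NextSeq 500 with stochastic labels. The submitters' processing notes name cutadapt 1.12, HISAT2 2.1.0, bcl2fastq and FastQC as tools and mm10 as the build. The sources used here do not name the counting program, the strand setting or the use of the labels. The authors deposited raw counts per Ensembl transcript, neither normalized nor pooled. Among isoforms nested in a longer transcript of the same member, the longer one had at least the count of the shorter one in 96.8% of libraries (100 pairs), so isoform counts were not added up. The transcript with the most counts on average over the 12 epithelial libraries stood for its gene. The fibroblast columns hold 107814 entries against 71081 transcript identifiers and were not used. Coordinates and lengths came from GENCODE M21 (GRCm38), where 70518 identifiers were found.

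All 12 libraries entered 1 fit in edgeR 4.0.16 (R 4.3.3; filterByExpr, TMM, robust quasi-likelihood F test, 9 residual degrees of freedom, Benjamini-Hochberg adjusted p under 0.05 over all genes tested), and likewise over all transcripts. The procedure was tested on simulated data. Standard errors came from the F statistic. DESeq2 1.42.0 was an alternative. The groups share mice 1 to 4 by their labels, so the numbers pair the libraries, and the deviations of 1 mouse in 2 groups had correlations of -0.0192 to 0.156 over 12 pairs (different mice, -0.184 to 0.124). The members and lists were chosen with earlier results of these data known. Per-library values are given for the 5 largest and 3 smallest changes of each subunit at 30000 fibers, members that fell, up to 8 members by smallest p in each direction at 12000 fibers, and a fixed set of 17; some of these are given by their change only, a few genes are not reported here, and genes outside that rule, such as Rpl7, Rpl28, Rps9 and Rps10, were picked after their values were seen. Representative counts per library ran from 2799765 to 10583357.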

Additional observations from a re-analysis of the deposited data

Results flagged for a closer look

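Among 111 groups of 4 libraries looked at (33 named members and the shares of counts), 3 held a library far from the other 3, and chance alone sets apart about 1 in 20 such groups. Rps12 was at 123.9 CPM in control mouse 1, while the other controls lay from 88.9 to 92.1. In the same library the ratio of large to small subunit counts was 1.452, against 1.54 to 1.55 in the other controls. Rpl22l1 was at 400.2 CPM in mouse 4 at 30000 fibers, against 332.6 to 343.6 in the other 3 libraries of that group.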

How the results depend on the processing

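The counts of members higher at 30000 fibers, 78 against control and 77 against 12000 fibers, stayed within 1.5 times in every alternative run and were 78 and 77 without any one of the 12 libraries. The count at 12000 fibers was less firm: 10 to 29 higher and 1 to 2 lower without one library, and 8 higher and 1 lower under the length offset. Only 1 member was lower there with the sum of a gene's transcripts or its longest transcript, and 0 of 80 with its highest coding transcript (edgeR, adjusted; 1 at an unadjusted p under 0.05). Without one library, 4 to 5 members were lower at 30000 against 12000 fibers.

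Under the length offset 9 members were lower at 30000 fibers against control and 11 against 12000 fibers. Rpl37 went to -0.37 and -0.59 in these comparisons, Rps15 to -0.40 and -0.60, Rps19bp1 to -0.34 and -0.52, and Rps2 to -0.58 and -0.53. Rplp1 and Rpl8 were not called against control (-0.04 and -0.11) and were lower against 12000 fibers (-0.19 and -0.28). With the longest transcript 16 members were lower in each. Rpl11 was then at -1.33 and -1.47, Rps15 at -0.21 and -0.50, Rps19 at -1.38 and -1.38, and Rps27a at -1.59 and -1.42. Rps2 was at -0.27 against control with the sum of transcripts. With the highest coding transcript 2 members were lower in each. Apart from the construction of each alternative, the cause of these reversals was not tested.

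With the mouse as a replicate block the counts were the same as without it, 17 higher and 2 lower at 12000 fibers, 78 and 5 at 30000 fibers, and 77 and 5 between the fiber groups. The block with the length offset gave 9 and 11 lower at 30000 fibers against control and 12000 fibers, with Rpl37 at -0.37 and -0.59, Rps15 at -0.40 and -0.60, and Rps2 at -0.58 and -0.52.

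The share of counts on ribosomal protein genes was 1.01%, 1.07% and 5.13% in the 3 groups over the sum of all transcripts, and 1.03% and 5.26% at 12000 and 30000 fibers without mitochondrial-genome genes. Among isoforms with a mean of at least 100 counts, 4 were lower at 12000 fibers, 55 at 30000 fibers and 57 between the fiber groups, in place of 8, 130 and 128, with fewer isoforms tested. Of the values of single members and medians recomputed, 2701 kept their direction and call or stayed within their spread, 19 lost a call, 11 gained one, 15 moved by more than their spread and 21 changed sign. Depth limits members of few counts: Rps27 at 30000 fibers, and Rps27rt and Rps23 in the controls and at 12000 fibers.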
